A study of Homo sapiens with 4 samples.

Results

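The genes described here make pyrimidine nucleotides from small precursors or break them down: CAD, DHODH, UMPS, CTPS1 and CTPS2 on the synthesis side, and NT5C3A, NT5E, DPYD, DPYS and UPB1 on the breakdown side. They were taken by symbol from a table of 33478 genes, in which 9 of the 10 were found. UPB1 was not analysed here. Of the 9, 8 reached a mean of at least 1 TPM, a transcript level corrected for gene length, and were tested. DPYS did not reach it and is given as values only.

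The cells are MHCC-97H, an established human liver cancer line with high metastatic capacity. RNA was sequenced from 2 libraries with a control short hairpin RNA (SH-NC) and 2 libraries with a hairpin against UCK2 (SH-UCK2). UCK2 is uridine-cytidine kinase 2, which returns uridine and cytidine to the nucleotide pool by salvage, the alternative to the synthesis route. Both SH-UCK2 titles carry the letter B, and if that is 1 hairpin, effects of its own cannot be told apart from those on UCK2. No dose, time or further treatment is given, and whether the libraries of a group come from separate cultures is not stated, so every p-value below measures the spread between these libraries only.

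Cells assemble uridine monophosphate (UMP) from glutamine, bicarbonate and aspartate, with the ring closed before the sugar phosphate is added. UMP is then phosphorylated, and part of it is aminated to the cytidine nucleotide CTP. In the opposite direction, nucleotidases strip the phosphate from UMP and CMP, and the free base uracil is reduced, opened and cut to beta-alanine, a route that is most active in normal liver.

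UCK2, the targeted gene, was not clearly separated by the labels. It measured 136 and 93.6 TPM in SH-NC replicates 1 and 2, and 121 and 67.8 TPM in the libraries labelled SH-UCK2, so the groups overlapped. The description lines of 2 libraries also differ from their titles in a cell line or gene number, and each direction below rests on the titles. The rows used here sum to 850379 and 850534 TPM in the SH-NC libraries and to 676811 and 643063 TPM in the libraries labelled SH-UCK2, and the median log2 difference of the 14038 genes tested was -0.22. For that reason each difference is also given after median-ratio scaling, which divides each library by its median ratio to the others and brings that median to -0.01. Of 11 liver markers, 9 averaged at least 1 TPM, with HNF4A at 23.1 to 34.8 TPM and ALB at 18.6 to 29.5 TPM. GPC3 was at or near 0 and APOB stood at 0.586 to 0.968 TPM. APOA1 (0.250 to 2.32 TPM) and TTR (4.12 to 5.52 TPM) were low. None of the 10 retina markers, read because the extraction text names retinas, averaged 1 TPM.

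The 5 synthesis genes were all expressed, and each had a lower mean in the libraries labelled SH-UCK2, but none passed the test. For 4 of them (CAD, DHODH, UMPS and CTPS2) the groups of libraries did not overlap as deposited. NT5E was lower in the same way. That makes 5 of the 8 genes tested lower without overlap, against 44.4% of all genes tested, and 0 higher without overlap, against 5.46%. With limma, 0 of the 8 were called in either direction at an adjusted p under 0.05, and 0% of all genes were. At an unadjusted p under 0.05, 0 of the 8 were lower or higher, against 14.0% and 1.38% of all genes. A log2 difference below 0 was found for 6 of the 8, against 74.7% of all genes, and above 0 for 2, against 25.3%. After scaling, 1 gene was lower without overlap (DHODH, against 15.5% of all genes) and 1 higher (DPYD, against 16.0%). Scaled differences lay below 0 for 5 of the 8 and above 0 for 3, against 50.8% and 49.2% of all genes. With limma 0 of the 8 were called after scaling, against 0.0641% of all genes higher and 0% lower, and 0 had an unadjusted p under 0.05, against 3.97% higher and 1.42% lower. The share with a difference below 0 was thus near that of the whole table as deposited. In RNA from whole cultures, fewer cells expressing a gene and less RNA per cell cannot be told apart.

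**Figure D1:**
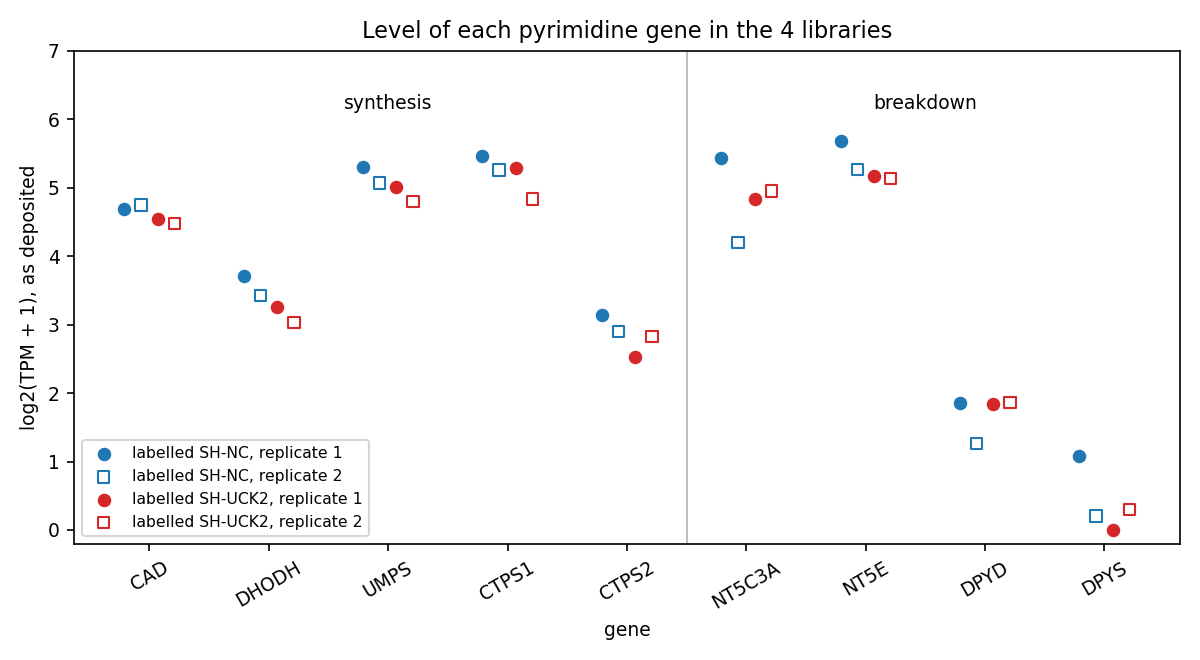
Level of each gene in each library, as log2(TPM + 1) of the deposited values on the vertical axis, with synthesis genes on the left and breakdown genes on the right. Blue marks are SH-NC libraries and red marks are libraries labelled SH-UCK2, with circles for replicate 1 and open squares for replicate 2. NT5E, CTPS1 and UMPS stand highest, DPYS is near 0, and the 2 controls of NT5C3A lie at 42.3 and 17.4 TPM.

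Mean levels over the 4 libraries fell in the order NT5E (39.2 TPM), CTPS1 (36.5), UMPS (32.2), NT5C3A (29.3), CAD (23.6), DHODH (9.39), CTPS2 (6.27), DPYD (2.31) and DPYS (0.376). NT5E was above CTPS1 in 3 of 4 libraries, UMPS above NT5C3A in 2 of 4 and NT5C3A above CAD in 3 of 4, so the order of those neighbours is not fixed by these libraries. Each other neighbouring pair kept its order in 4 of 4 libraries. Because TPM is corrected for length, these orders compare transcripts rather than reads, and they do not depend on how a library was scaled.

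The start regions of CAD, DHODH and UMPS are shown because these genes carry the consecutive steps up to UMP and all were lower without overlap as deposited. The sequences are from RefSeq on GRCh38.p14, plus strand, and lie upstream of the RefSeq start. Capitals mark the GC box in CAD, the letters CCGCCC, which are the reverse complement of GGGCGG. In DHODH they mark the E-box CACGTG, and in UMPS the cyclic AMP response element TGACGTCA. The DHODH stretch also holds GGGCGG and CGGAAG, which are left in lower case.
CAD, chr2:27217274-27217368: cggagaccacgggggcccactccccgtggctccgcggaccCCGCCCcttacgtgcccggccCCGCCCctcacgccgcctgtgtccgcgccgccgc
DHODH, chr16:72008545-72008610: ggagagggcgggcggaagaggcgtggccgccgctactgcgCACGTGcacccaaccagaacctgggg
UMPS, chr3:124730394-124730423: gacttcgcgggTGACGTCAtcggggcgccg

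The 2 GC boxes of CAD begin 55 and 34 bases before its RefSeq start, the E-box of DHODH 159 bases before and the element of UMPS 47 bases before. The table places the starts of DHODH and UMPS further upstream, at 72008588 and 124730366, and that of CAD further downstream, at 27217390. Windows from 250 bases before to 50 bases after each RefSeq start were searched on both strands for the 8 genes tested, over 12 windows; DPYS was not searched. GGGCGG was found in 7 of 8 genes (all but UMPS) and in 45.0% of all 35116 windows. CACGTG, the letters that MYC and related factors bind, was found in 1 of 8 (DHODH) and in 7.26% of windows. TGACGTCA was found in 1 of 8 (UMPS) and in 1.85% of windows. CCAAT was found in CAD and DHODH, CGGAAG in CTPS1, DHODH, NT5C3A and UMPS, TATAAA in NT5C3A and TTTCCCGC in 0 of 8, where 34.6%, 19.5%, 11.5% and 1.63% of windows hold them. A match describes the sequence and not a bound site, and a site outside the windows, for CAD as for the others, would be missed.

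CAD encodes a single large protein with the opening activities of the route, carbamoyl phosphate synthetase, aspartate transcarbamylase and dihydroorotase, and its first activity is the main point of control. The gene (ENSG00000084774) lies on chromosome 2 from 27217390 to 27243943, plus strand, in hg38. It measured 24.8 and 25.8 TPM in SH-NC replicates 1 and 2, and 22.4 and 21.3 TPM in the libraries labelled SH-UCK2. The replicates of each group were close together and the controls were higher. The means were 25.3 ± 0.695 and 21.8 ± 0.801 TPM (SD, n = 2 each). The log2 difference of CAD on the log2(TPM + 1) scale was -0.20 ± 0.19 (SE; 95% interval -0.64 to 0.24; limma adjusted p = 0.624), close to the median of all genes. Scaled values of CAD were 20.9, 25.7, 24.4 and 22.9 TPM in the same order of libraries. The lowest and the highest value then both belonged to controls, and the difference became 0.03 (95% interval -0.44 to 0.50; limma adjusted p = 0.994).

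DHODH, on the inner mitochondrial membrane, oxidises dihydroorotate to orotate and hands the electrons to ubiquinone, which ties the route to the respiratory chain. The gene (ENSG00000102967) spans 72008588 to 72027664 on chromosome 16, plus strand. It measured 12.1 and 9.72 TPM in the SH-NC libraries, and 8.58 and 7.18 TPM in the libraries labelled SH-UCK2. Both controls were above both of the other libraries. DHODH had the smallest p of the synthesis genes, with a log2 difference of -0.42 ± 0.25 (SE; 95% interval -1.003 to 0.16; limma adjusted p = 0.439). Scaled values were 10.2, 9.69, 9.34 and 7.73 TPM, still without overlap, and the scaled difference was -0.20 (95% interval -0.71 to 0.31; limma adjusted p = 0.955). Most of the scaled difference came from SH-UCK2 replicate 2, since replicate 1 lay close to the lower control.

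UMPS completes UMP with 2 activities in 1 protein, adding the sugar phosphate to orotate and removing its carboxyl group. The gene (ENSG00000114491) spans 124730366 to 124745193 on chromosome 3, plus strand. It measured 38.4 and 32.5 TPM in the SH-NC libraries, and 31.2 and 26.8 TPM in the libraries labelled SH-UCK2. The controls were again higher, here with SH-UCK2 replicate 1 just under SH-NC replicate 2. The log2 difference of UMPS was -0.28 ± 0.19 (SE; 95% interval -0.74 to 0.18; limma adjusted p = 0.505). The controls were level after scaling, at 32.4 TPM each, with 34.02 and 28.8 TPM on either side of them, and the difference was -0.05 (95% interval -0.50 to 0.40).

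CTPS1 and CTPS2 are the CTP synthases, which aminate UTP to CTP with nitrogen from glutamine. CTPS1 is the form known for the demand of dividing lymphocytes. CTPS1 (ENSG00000171793, chromosome 1, 40979335 to 41012565, plus strand) measured 43.1 and 37.2 TPM in the SH-NC libraries, and 38.2 and 27.5 TPM in the libraries labelled SH-UCK2. The groups overlapped, because SH-UCK2 replicate 1 lay between the controls. CTPS1 had a log2 difference of -0.29 ± 0.22 (SE; 95% interval -0.81 to 0.22; limma adjusted p = 0.535) and of -0.06 after scaling. It was -0.07 without SH-UCK2 replicate 2 and -0.52 without SH-UCK2 replicate 1. Scaled values were 36.3 and 37.1 TPM in the SH-NC libraries, with 41.6 TPM above them and 29.7 TPM below, so the replicates labelled SH-UCK2 enclosed both controls. The gap between those replicates, 0.47 on the scaled log2 scale, was larger than that of 90.8% of genes within 2-fold of the level of CTPS1.

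CTPS2 (ENSG00000047230, chromosome X, 16588003 to 16712936, minus strand) was the minor form. It measured 7.83 and 6.45 TPM in the SH-NC libraries, and 4.75 and 6.08 TPM in the libraries labelled SH-UCK2. The groups did not overlap as deposited, with SH-UCK2 replicate 1 lowest. CTPS2 had a log2 difference of -0.35 ± 0.27 (SE; 95% interval -0.98 to 0.28; limma adjusted p = 0.558) and of -0.14 after scaling, where SH-UCK2 replicate 2 (6.55 TPM) lay between the SH-NC libraries (6.60 and 6.42 TPM). S100G, a calcium-binding protein gene on the opposite strand within CTPS2, was listed at 0 in 3 libraries and at 0.461 TPM in SH-UCK2 replicate 2.

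**Figure D2:**
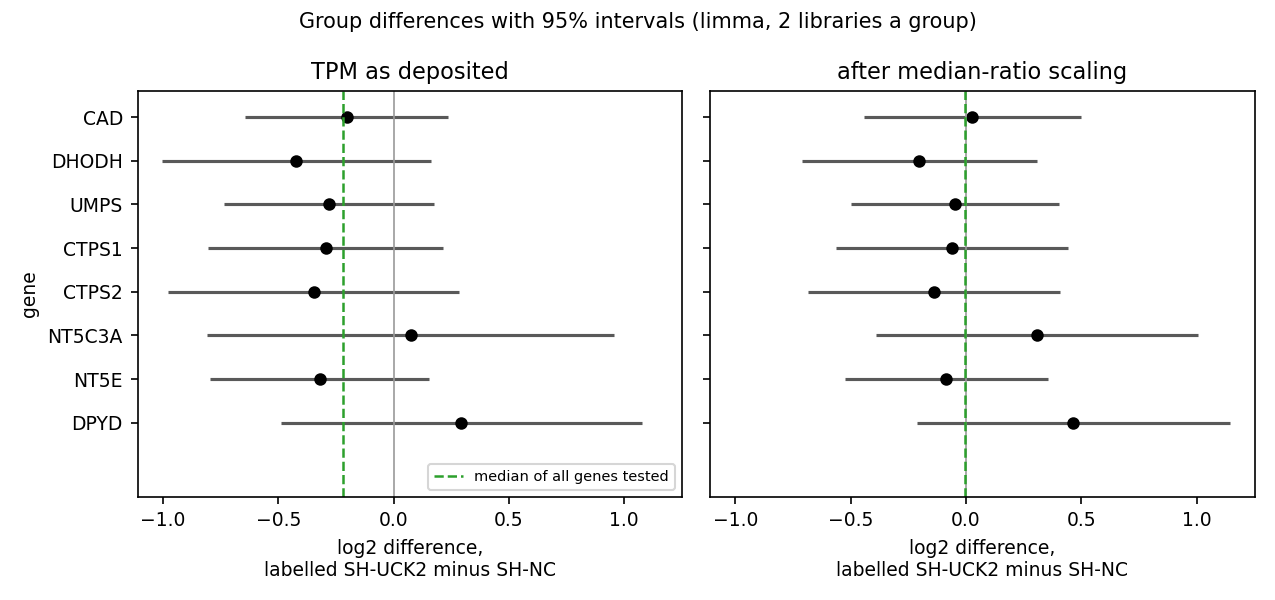
Log2 difference of each tested gene on the horizontal axis, libraries labelled SH-UCK2 minus SH-NC, as points with 95% intervals from limma (2 libraries a group). The left panel uses TPM as deposited and the right panel median-ratio scaled values, and the dashed green line is the median of all 14038 genes tested, -0.22 and -0.01. All 8 intervals include 0 in both panels, and the synthesis genes lie around the dashed line.

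All 8 intervals included 0, with and without scaling. A 2-fold change from the SH-NC mean, put on the log2(TPM + 1) scale for each gene, lay outside the interval in both directions for 5 of the 8 as deposited, and the exceptions were DHODH, CTPS2 and DPYD. After scaling it did so for 6 of 8, and the exceptions were NT5C3A and DPYD. With 2 libraries a group, limma borrows much of the spread behind these intervals from the whole table.

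On the breakdown side the levels were uneven: both nucleotidases were abundant, while DPYD was low and DPYS near the floor. NT5C3A is a cytosolic nucleotidase that removes the phosphate from UMP and CMP and is best known from red blood cells. The gene (ENSG00000122643) lies on chromosome 7 from 33014114 to 33062797, minus strand. It measured 42.3 and 17.4 TPM in SH-NC replicates 1 and 2, and 27.5 and 29.9 TPM in the libraries labelled SH-UCK2. The highest and the lowest value were both controls, and the other libraries lay between them. NT5C3A had a log2 difference of 0.07 ± 0.37 (SE; 95% interval -0.81 to 0.96; limma adjusted p = 0.948), or 0.31 after scaling. Without SH-NC replicate 2 its sign turned, to a log2 difference of -0.54 (limma adjusted p = 0.271, in a range of 0.114 to 1 over its alternatives).

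The gap between the controls of NT5C3A was 1.00 on the scaled log2 scale, larger than that of 97.8% of the 4251 genes within 2-fold of its level. CMPK1, named after its values were seen, is the kinase that carries UMP and CMP in the opposite direction, and it showed the same order. It measured 56.0 and 25.4 TPM in the SH-NC libraries, and 35.3 and 38.6 TPM in the libraries labelled SH-UCK2. Of the 50-base words in NT5C3A transcripts of GENCODE 29, 10.1% also occur in another gene, nearly all in the pseudogene NT5C3AP1, so the level of NT5C3A is uncertain where reads were shared between them. Among mesenchymal markers LUM, a matrix proteoglycan gene, was lowest in the same library, at 27.6, 5.85, 19.1 and 12.7 TPM in the same order of libraries, and its part in the result was not tested.

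NT5E, also called CD73, sits on the outer cell surface and removes the phosphate from extracellular nucleotides, mainly AMP, which yields adenosine. It is also a marker of mesenchymal cells. NT5E (ENSG00000135318, chromosome 6, 85449584 to 85495791, plus strand) measured 50.3 and 37.5 TPM in the SH-NC libraries, and 35.0 and 34.1 TPM in the libraries labelled SH-UCK2. SH-NC replicate 1 stood apart from the other libraries, and the groups did not overlap. The means were 43.9 ± 9.03 and 34.6 ± 0.645 TPM (SD, n = 2 each). NT5E had a log2 difference of -0.32 ± 0.20 (SE; 95% interval -0.79 to 0.15; limma adjusted p = 0.466), which was -0.11 without SH-NC replicate 1 and -0.53 without SH-NC replicate 2. Scaled, it measured 42.4, 37.4, 38.2 and 36.8 TPM, the groups overlapped and the difference was -0.08. Of 8 mesenchymal markers, 6 averaged under 1 TPM and their summed level was 8.40 to 30.4 TPM in the SH-NC libraries and 17.5 to 22.5 TPM in the other libraries, most of it LUM. THY1 and PDGFRB were at or near 0 in the 4 libraries.

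DPYD encodes dihydropyrimidine dehydrogenase, the rate-limiting step of uracil and thymine breakdown and the enzyme that inactivates the drug fluorouracil. The gene (ENSG00000188641) runs from 97077743 to 97921049 on chromosome 1, minus strand. It measured 2.62 and 1.39 TPM in the SH-NC libraries, and 2.58 and 2.63 TPM in the libraries labelled SH-UCK2. SH-NC replicate 2 was low and the other libraries were level. DPYD had a log2 difference of 0.29 ± 0.33 (SE; 95% interval -0.49 to 1.08; limma adjusted p = 0.704). Scaled values were 2.21 and 1.39 TPM against 2.81 and 2.83 TPM, without overlap, with a difference of 0.47 (95% interval -0.21 to 1.14; limma adjusted p = 0.955). As deposited and without SH-NC replicate 2, the log2 difference of DPYD was -0.0045, so its positive value rested on that library.

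Transcripts inside the DPYD gene were nearly silent. The antisense genes DPYD-AS1 and DPYD-AS2 and the intronic DPYD-IT1 were listed at 0 in both controls and reached at most 0.319 TPM (DPYD-IT1) in a library labelled SH-UCK2. Of the 50-base words in DPYD transcripts, 5.66% also lie in transcripts of MIR137HG, and for the other genes with a row and a mean above 1 TPM, NT5C3A aside, the share in another gene was at most 1.85% (DHODH). CTPS1 and CTPS2 share no word of this length, as 0% of the CTPS2 words occur in another gene.

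DPYS encodes dihydropyrimidinase, which opens the reduced ring and is abundant in normal liver and kidney. The gene (ENSG00000147647) lies on chromosome 8 from 104330324 to 104467053, minus strand. It measured 1.12 and 0.153 TPM in the SH-NC libraries, and 0 and 0.227 TPM in the libraries labelled SH-UCK2. These values are too low to order the groups, and a TPM table keeps no read depth that would set a detection limit. With no filter on low values DPYS had a log2 difference of -0.50 (95% interval -1.37 to 0.38; limma adjusted p = 0.641).

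**Figure D3:**
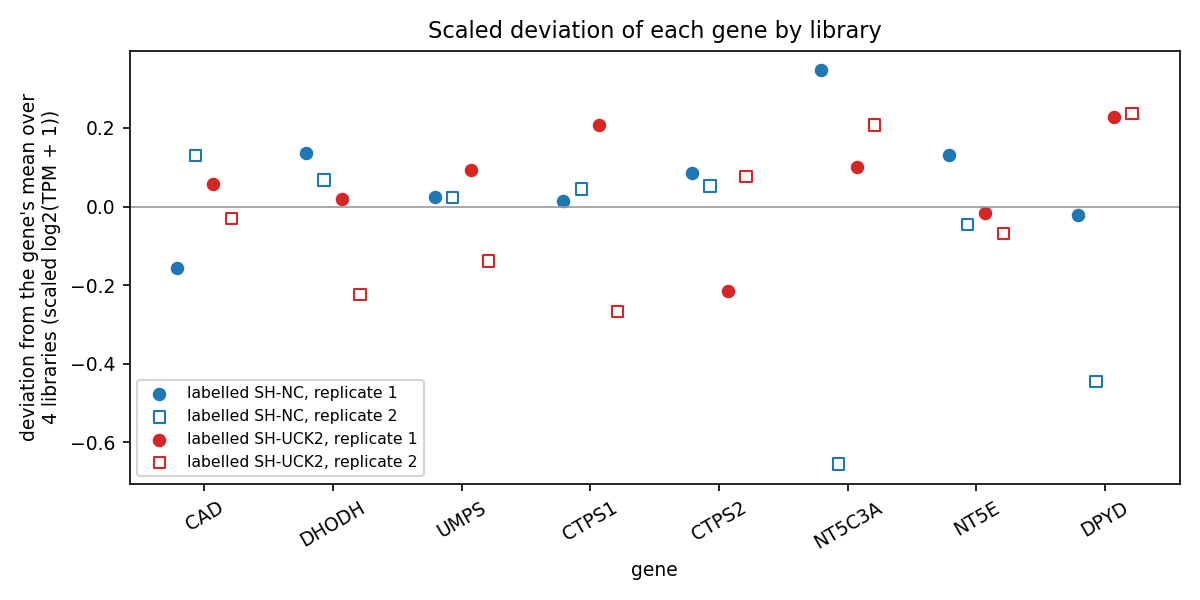
Deviation of each tested gene from its own mean over the 4 libraries, in median-ratio scaled log2(TPM + 1), on the vertical axis, with colours and marks for the 4 libraries. The synthesis genes stay within -0.27 and 0.21 of their means, while SH-NC replicate 2 lies at -0.65 for NT5C3A and at -0.44 for DPYD.

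Across libraries, SH-UCK2 replicate 2 was the lowest after scaling for 4 of the 8 genes (DHODH, UMPS, CTPS1 and NT5E), against 30.8% of all genes tested. SH-NC replicate 2 was the lowest for NT5C3A and DPYD (2 of 8, against 34.4% of all genes), SH-NC replicate 1 for CAD and SH-UCK2 replicate 1 for CTPS2. UCK2 itself was lowest in SH-UCK2 replicate 2 as well, at 73.1 scaled TPM, but highest in replicate 1 of that group, at 131. The SH-NC libraries lay between them, at 114 and 93.3 scaled TPM. The scaled log2 difference of UCK2 was -0.08 (limma adjusted p = 0.990), so the labels did not separate the targeted gene after scaling either. On the scaled log2 scale, the larger gap between replicates of 1 label exceeded the difference between the labels for 7 of the 8 genes. DPYD was the exception. The share of all genes with such a gap was not taken, so this count does not set DPYD apart.

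Ratios between genes within a library do not depend on the scaling. CTPS1 exceeded CTPS2 by 5.50 and 5.77 times in the controls, and by 8.05 and 4.53 times in the libraries labelled SH-UCK2, so the controls lay between the others. The ratio of CAD to UMPS was 0.646 and 0.794 in the controls against 0.717 and 0.795, and the ratio of CAD to DHODH was 2.05 and 2.65 against 2.61 and 2.96. Both pairs overlapped between groups. Over all 10 pairs of synthesis genes, a set added after the values were seen, the groups did not overlap in 2, both with DHODH. With 2 libraries a group, ratios can separate by arrangement alone. The share of all gene pairs without overlap was not taken, so this count does not set DHODH apart. The ratio of DHODH to UMPS was 0.315 and 0.299 under SH-NC against 0.275 and 0.268, and that of DHODH to CTPS1 was 0.281 and 0.2612 against 0.224 and 0.2605.

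**Figure D4:**
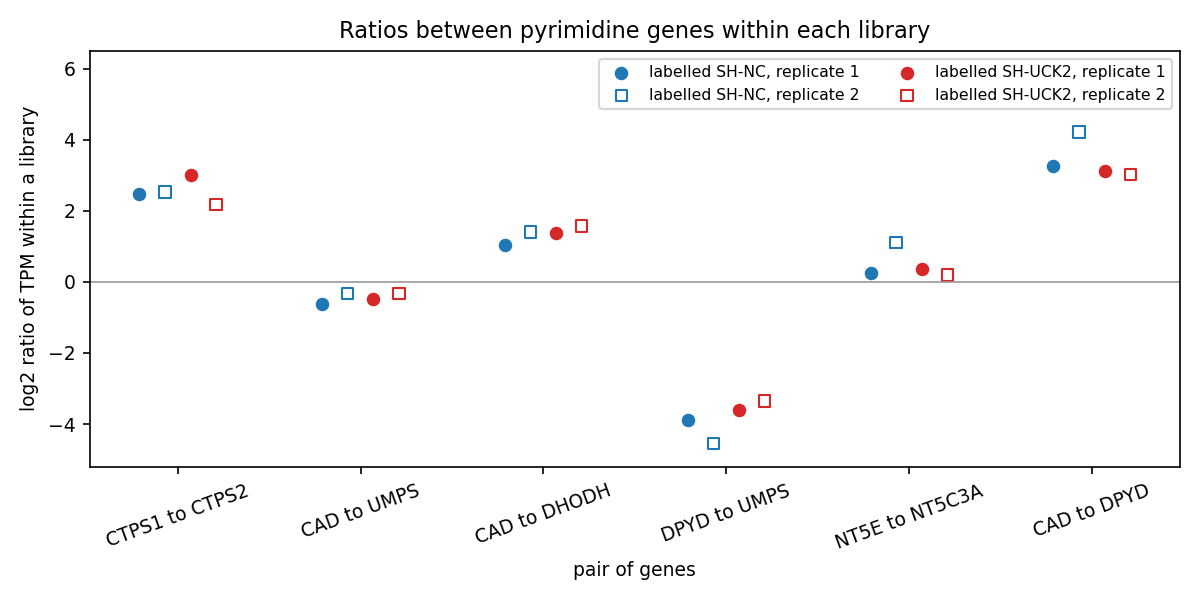
Log2 ratio of TPM between pairs of genes within each library on the vertical axis, for 6 pairs, with colours and marks for the 4 libraries. Groups overlap in 4 pairs, and in the 2 pairs with DPYD SH-NC replicate 2 is farthest from the other libraries.

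The ratio of NT5E to NT5C3A was 1.19 and 2.16 in the controls against 1.27 and 1.14, and the groups overlapped. Of the 6 pairs plotted, the 2 with DPYD did not overlap. The log2 ratio of DPYD to UMPS was -3.88 and -4.54 in the controls, and -3.60 and -3.35 in the libraries labelled SH-UCK2. CAD exceeded DPYD by 9.48 and 18.5 times in the controls, and by 8.68 and 8.09 times in the other libraries. SH-NC replicate 1 lay close to the libraries labelled SH-UCK2 in both ratios, and SH-NC replicate 2 stood apart. The ratios are given as values, with no test, and without the share of all gene pairs that do not overlap, so the count does not set DPYD apart.

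The neighbouring genes of the pathway were read as lists, by counts and medians. The list of uridine and cytidine salvage held 14 genes, among them UCK2 itself and the deoxynucleoside kinases TK1, TK2 and DCK. Of the 14, 11 were tested, 0 were called and all 11 had a log2 difference below 0. Their median was -0.40 (scaled -0.17, with 10 of 11 below 0). The most abundant genes of the list were UCK2 and TK1, thymidine kinase 1. TK1 measured 171 and 215 TPM in the SH-NC libraries and 150 and 105 TPM in the libraries labelled SH-UCK2. Among nucleotide kinases and conversion enzymes, 0 of 15 were called and 13 lay below 0, with a median of -0.42 (scaled -0.18). NME1 and NME4, which make triphosphates, were the most abundant, and DTYMK, thymidylate kinase, had the largest difference as deposited, at -0.67 (limma adjusted p = 0.294; scaled -0.43). After scaling RRM2B, a ribonucleotide reductase subunit named after its values were seen, had a larger one in the other direction, at 0.47. The 5 synthesis genes, with a median of -0.29 (scaled -0.06), lay nearer to the median of all genes than these lists did; this difference was not tested.

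Genes that supply the route gave a mixed picture. Of 20 tested, 0 were called and 15 lay below 0 as deposited (median -0.18), but 9 did after scaling (median 0.05). GLUL, glutamine synthetase, measured 122 and 126 TPM in the SH-NC libraries against 88.5 and 69.0 TPM. Its log2 difference was the largest as deposited, at -0.66 (limma adjusted p = 0.294), and was -0.42 after scaling. After scaling the largest was that of ASNS, asparagine synthetase, named after its values were seen, at 0.82 and in the other direction (limma adjusted p = 0.884). ASNS stood at 50.1 and 37.1 TPM under SH-NC, and at 44.0 and 96.6 TPM under SH-UCK2, so its groups overlapped as deposited and the second SH-UCK2 library was high. SLC1A5, a glutamine transporter, measured 224 and 222 TPM against 187 and 208 TPM.

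Among 7 regulators of CAD with a row, 0 were called and 5 lay below 0 (median -0.34, scaled -0.12). MYC, which activates transcription of CAD, measured 119 and 122 TPM in the SH-NC libraries against 90.0 and 86.9 TPM, a log2 difference of -0.44 (limma adjusted p = 0.294; scaled -0.20). E2F1, a factor of S phase entry with the largest difference as deposited, measured 50.3 and 50.4 TPM in the SH-NC libraries against 39.2 and 23.0 TPM (log2 difference -0.72; scaled -0.49). Both had closely matched controls, and neither passed the test. After scaling the largest difference was that of the S6 kinase gene RPS6KB1, named after its values were seen, at 0.87 and in the other direction.

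The other nucleotidases had 0 of 7 called, with 4 below 0 (median -0.14; scaled 0.10). NT5C, which prefers deoxynucleotides, was the most abundant at 239 and 245 TPM against 200 and 172 TPM. NT5C2, which prefers purines, followed, with a difference of -0.14 (scaled 0.10). NT5DC2 had the largest difference, at 57.0 and 59.5 TPM against 39.5 and 26.9 TPM. Its log2 difference was -0.82 (limma adjusted p = 0.294), and -0.58 after scaling. Nucleotidases of the cell interior were thus led by NT5C, above NT5C3A in each library.

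Among genes that handle nucleotides and adenosine around NT5E, not all of them at the cell surface, 0 of 8 tested were called. Below 0 lay 6 of them (median -0.16, scaled 0.07). DPP4, which anchors adenosine deaminase, and PNP, which cleaves purine nucleosides, had the highest levels of this list. Their differences were -0.14 and -0.49 (scaled 0.09 and -0.26). ADA, adenosine deaminase, had the largest as deposited, at -0.52 (scaled -0.30), and after scaling the adenosine receptor gene ADORA2B, named after its values were seen, was at 0.30 in the other direction. Genes that handle beta-alanine and related amino acids after breakdown had 0 of 5 called and 4 below 0 (median -0.25, scaled -0.05). ALDH2 was at -0.34 and CNDP2 at -0.40 (scaled -0.10 and -0.16). After scaling the largest difference of this list was that of CSAD, named after its values were seen, at 0.39 and in the other direction. Of the relatives of DPYS, which lack its enzyme activity and act in the cytoskeleton, 0 of 3 tested were called (median -0.19, scaled 0.02). CRMP1 was at -0.30 and DPYSL2 at 0.11 (scaled -0.09 and 0.34).

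The genes most like 4 members in scaled profile were sought among protein-coding genes averaging at least 10 TPM, by root mean square distance in log2 over the 4 libraries. GNB1, CNIH1 and MAGEA3 were nearest to CAD (distance 0.0040, 0.0072 and 0.012), BOLA3, FH and LAD1 to CTPS1 (0.0089, 0.012 and 0.015), and RIPK2, PSMD10 and CLTC to NT5E (0.0039, 0.0087 and 0.0089). SNX6, APOOL and CDK7 were nearest to DPYD, at 0.016, 0.039 and 0.039. Such likeness was common for flat profiles: 1162 of 7314 genes lay within 0.1 of CAD, 871 of NT5E and 369 of CTPS1, against 66 of 7315 for DPYD. With 4 libraries the distances describe these libraries only.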

How the data were processed

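TPM values per gene, with symbol, identifier and hg38 position, were used as deposited by the authors. Per the submitters' processing notes, TopHat2 2.0.14, HTSeq, DESeq, edgeR and hg38 were involved, with no role given for each; the annotation and strand handling are not given in the sources used here. TPM keeps no read depth, so no counting interval is given. Genes with a mean of at least 1 TPM (14038) entered a two-sided limma fit (version 3.58.1, R 4.3.3, eBayes with trend) of log2(TPM + 1), and p-values were adjusted over all of them by Benjamini-Hochberg, with a threshold of 0.05. A log2 difference on this scale understates the change of low genes. The members and lists were chosen with earlier results of these data known. Genes named are the members, genes overlapping them, the 2 most abundant and the 1 most different gene of each list, and the 3 nearest profiles, with markers for the check of the labels; others are said to be chosen later. Alternatives were other scalings, pseudocounts, filters, leaving out the trend, a replicate block and the removal of each library. RefSeq (GRCh38.p14) and GENCODE 29 supplied sequences. Figures used matplotlib 3.10.9.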

Additional observations from a re-analysis of the deposited data

How the results depend on the processing

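No tested member was called under any alternative run (smallest adjusted p with limma 0.114). Of 79 member values under alternatives that kept the 4 libraries, 71 kept their direction and 8 turned: CAD with median-ratio scaling (0.0267, also with the replicate block), CAD and UMPS with quantile normalization (0.0527 and 0.0011), and CAD, UMPS, CTPS1 and NT5E when rescaled without the 50 most abundant genes (0.13, 0.0604, 0.0474 and 0.0230). The median of the members, -0.29 as deposited, was -0.0536, -0.0027 and 0.0539 under these scalings, and -0.0536 with scaling and the block. Members without overlap numbered 1 lower and 1 higher with median-ratio scaling, against 15.5% and 16.0% of all genes. They numbered 2 and 1 with quantile normalization, and 0 and 2 in the rescaled values. For quantile normalization and the rescaled values the share of all genes was not taken, so these counts are not read as a result about the members. Genes called, of all tested, were 9 higher with median-ratio scaling and 8 with quantile normalization. With the replicate number as a block they were 29 higher and 10 lower, and 98 and 23 with scaling as well; the titles give no shared source for a number, and deviations of replicates with the same number correlated at -0.21 across genes. Leaving out 1 library gave 0 to 242 genes higher and 0 to 108 lower, a members' median of -0.43 to -0.17, and 5 to 7 members lower and 0 to 2 higher without overlap. The widest counts of genes called came without SH-NC replicate 1. With 1 library left out, a single library stands against 2, and groups separate more easily by arrangement alone. The share of all genes without overlap and their median were not taken for these settings. The member counts and medians with 1 library left out are therefore not read as a result about the members. When 1 library was left out, NT5C3A ranged from -0.54 to 0.69, DPYD from -0.0045 to 0.59, CTPS1 from -0.52 to -0.07, NT5E from -0.53 to -0.11, DHODH from -0.57 to -0.28, CTPS2 from -0.50 to -0.20, UMPS from -0.40 to -0.16 and CAD from -0.24 to -0.17. The cause was not tested.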

Other observations

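Other genes of the pathway lists shared the split of NT5C3A between the SH-NC libraries; they were chosen after their values were seen, and no test was made. RPS6KB1, the S6 kinase that phosphorylates CAD downstream of mTOR, was listed at 15.8 and 5.47 TPM in SH-NC replicates 1 and 2, and at 14.4 and 16.2 TPM under SH-UCK2. HIF1A, the hypoxia factor, was listed at 39.5 and 21.5 TPM under SH-NC, and at 29.1 and 33.6 TPM under SH-UCK2. SH-NC replicate 2 was the lowest library for both genes, as it was for NT5C3A, CMPK1 and DPYD. These orders are of deposited values, for which the share of all genes was not taken. After scaling that library was the lowest for 34.4% of all genes tested. SH-UCK2 replicate 2 was the lowest as deposited for TYMS and RRM2, and after scaling for 30.8% of all genes tested. TYMS, thymidylate synthase, stood at 118 and 110 TPM under SH-NC and at 101 and 59.6 TPM under SH-UCK2, and RRM2, the regulated subunit of ribonucleotide reductase, at 66.7 and 63.1 TPM against 60.0 and 38.3 TPM.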
